A study of Mus musculus with 24 samples.

Results

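Mitochondria carry their own ribosome, and the genes for its proteins were followed in mouse liver over 4 doses of dichloroacetic acid (DCA). The members were chosen by symbol alone, as every gene whose symbol starts with Mrpl or Mrps and a number. This gave 77 genes of the 15582 in the table, of which 48 (Mrpl) are named for the large subunit and 29 (Mrps) for the small subunit. All 77 passed the filter on low values, and none had a pseudogene symbol. The group was proposed with its dose response in these data already known, so counts and medians over the members are descriptions and support nothing further.

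The mitochondrial ribosome translates the few messenger RNAs of the mitochondrial genome, all of which encode subunits of the respiratory chain and ATP synthase. Its RNAs are made in the mitochondrion, whereas every one of its proteins is encoded in the nucleus, made in the cytosol and imported. The small subunit holds the messenger RNA and decodes it, and the large subunit joins the amino acids and passes the new chain to the inner membrane. Some of the proteins descend from bacterial ribosomal proteins and others are found only in mitochondria. Hepatocytes are rich in mitochondria. DCA, a by-product of water chlorination, inhibits pyruvate dehydrogenase kinase and so favours the entry of pyruvate into mitochondrial oxidation.

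RNA came from frozen liver of mixed lobes of male B6C3F1 mice, a hybrid strain, which were 4 weeks old. The control group drank water with 0 g/L DCA and the others 1, 2 or 3.5 g/L for 6 days. There were 6 libraries per dose and 24 in all, and no other treatment is named in the labels. Separate mice are not stated for the libraries of a dose, so the tests cover the spread between libraries, which may be technical. A tag of unstated meaning (L1 to L3) stands in each title. The controls carry L1, the 2 g/L libraries L2 and the 3.5 g/L libraries L3, while 1 g/L is split into 3 of each of the first pair. Tag and dose thus cannot be told apart at 3.5 g/L.

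Values are RPKM, that is, reads per length of gene and per mapped read. Each log2 fold below is a difference between group means of log2(RPKM + 1), fitted with limma (n = 6 per dose), and "rose" or "called" means a Benjamini-Hochberg adjusted p under 0.05 over the 6540 genes tested. The added 1 RPKM shrinks the folds of weakly expressed genes more, so any order of genes by fold holds for this scale only. Libraries held roughly 23,500,000 to 27,900,000 reads, judged from the smallest steps in the RPKM of weakly expressed genes, and a member's value rested on a mean of about 62 to 2960 reads (median 542). Across genes, libraries of 1 dose correlated pairwise at r = 0.9788 to 0.9949. Counting error is part of the spread between libraries, and its share in that spread was not tested.

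The liver label held against its markers. The summed RPKM of 6 hepatocyte markers (Alb, Ahsg, Apoa1, Cps1, Hnf4a and Ass1) was 25870 to 32519 in controls, 23344 to 28583 at 1 g/L, 18120 to 28913 at 2 g/L and 19665 to 25360 at 3.5 g/L. Of these 6, 4 fell at 2 g/L, and at 3.5 g/L 4 fell and 1 (Hnf4a) rose. The 5 Kupffer cell markers in the table summed to 48.9 to 68.3 in controls and 30.7 to 45.1 at 3.5 g/L, where 4 of them fell. The 4 erythroid markers fell at 2 g/L, from 198 to 621 in controls to 152 to 334. Sums for 4 sinusoidal endothelial markers stayed within 32.2 to 43.1 at all doses, those for 5 stellate markers within 46.7 to 90.4, and those for 3 cholangiocyte markers within 0.53 to 1.45. The 5 lymphocyte markers summed to 0.14 to 0.559 in controls and 1.07 to 8.88 at 2 g/L, which came from Ly6d. No marker was at 0 in all libraries. In bulk tissue, fewer cells of a type and less RNA per cell cannot be told apart, and the part these shifts have in the values below was not tested.

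In the controls the members were expressed at moderate and uneven levels. Per length of gene, the mean control level over the large subunit genes had a median of 8.81 RPKM, from 1.66 for Mrpl19 to 21.4 for Mrpl52. Over the small subunit genes the median was 7.35 RPKM, from 1.39 for Mrps25 to 24.2 for Mrps21. Next highest in the large subunit were Mrpl30 (19.7 ± 1.4 RPKM, SD, n = 6) and Mrpl12 (19.1 ± 1.7 RPKM), which do not differ beyond their spread from each other or from Mrpl52 (21.4 ± 2.0 RPKM). Mrpl35 (2.39 ± 0.36 RPKM) and Mrpl41 (2.52 ± 0.25 RPKM) were the next lowest after Mrpl19. In the small subunit Mrps7 (18.3 ± 1.2 RPKM) and Mrps12 (15.2 ± 1.0 RPKM) followed Mrps21, whereas Mrps6 (3.50 ± 0.46 RPKM) and Mrps11 (3.58 ± 0.47 RPKM) were the next lowest after Mrps25.

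Over both subunits, expression was higher at each DCA dose than in controls, and most of the difference was reached at 2 g/L. For each library the median over a subunit's genes of the difference from the control mean, on the log2(RPKM + 1) scale, was taken. For the large subunit it lay between −0.14 and 0.08 in the controls, 0.05 and 0.24 at 1 g/L, 0.30 and 0.50 at 2 g/L, and 0.23 and 0.43 at 3.5 g/L. For the small subunit it lay between −0.13 and 0.10, 0.01 and 0.26, 0.32 and 0.46, and 0.17 and 0.42 in the same order. At 2 and 3.5 g/L every library lay above every control in both subunits as deposited, whereas 1 g/L overlapped the controls. With median-ratio factors the same held, except that the small subunit at 3.5 g/L also overlapped them, with library 98 at 0.06 and control 8 at 0.10. Control 3, 1 g/L libraries 49 and 53, and 3.5 g/L libraries 98 and 101 were the low ones of their groups in both subunits. These 5 libraries also had the lowest RPKM summed over the table (141390 to 148976, against 150326 to 168240 in the other 19), and the part of that sum in their low values was not tested.

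**Figure D1:**
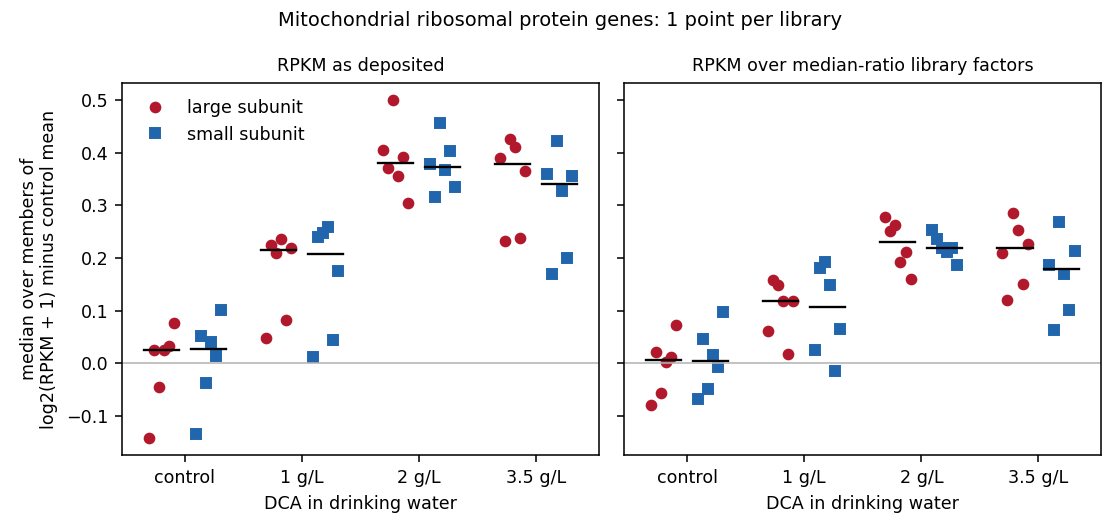
Median over the genes of each subunit of log2(RPKM + 1) minus the control mean, with 1 point per library, for RPKM as deposited (left) and after division by median-ratio library factors (right). Red circles are the large subunit, blue squares the small subunit, and black lines the median of 6 libraries. At 2 and 3.5 g/L all points of the left panel lie above all controls, and in the right panel 1 small subunit point at 3.5 g/L (0.06) lies below the highest control (0.10).

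Of the 48 large subunit genes, 44 rose at 2 g/L, where 41.9% of all tested genes were called higher, and 44 rose at 3.5 g/L, where 38.6% were. At 1 g/L, 12 rose, against 8.35% of all tested genes. None fell at any dose, since all 77 members had a fold above 0 at each, where 3.03%, 10% and 12.9% of all genes were called lower at 1, 2 and 3.5 g/L. The median log2 fold over the 48 was 0.16, 0.40 and 0.35, beside 0.05, 0.12 and 0.10 over all tested genes. All 6 treated libraries exceeded all 6 controls for 5, 35 and 24 genes in order of dose (3.01%, 20.2% and 22% of all tested genes).

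On the log2(RPKM + 1) scale, the highest fold of the large subunit at 3.5 g/L was that of Mrpl50, a protein with no bacterial counterpart. Its RPKM was 8.76, 9.23 and 9.93 (lowest, median and highest of 6 libraries) in controls, 10.2, 10.9 and 12.3 at 1 g/L, 12.3, 13.4 and 13.7 at 2 g/L, and 13.5, 14.1 and 15.9 at 3.5 g/L. Every treated library lay above every control, 1 and 2 g/L did not overlap, and 2 and 3.5 g/L overlapped in a narrow range. The log2 fold at 3.5 g/L was 0.58 (SE 0.05, adjusted p = 5.14e-10, limma). Mrpl45, with a lower control mean (4.59 against 9.25 RPKM), had 0.576 against 0.579 for Mrpl50, so their order depends on the pseudocount.

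Mrpl12, the homologue of the bacterial stalk protein that recruits translation factors, had 16.5, 19.1 and 21.9 RPKM in controls, 21.4, 24.4 and 27.3 at 1 g/L, 24.6, 30.2 and 33.5 at 2 g/L, and 21.7, 30.1 and 33.1 at 3.5 g/L. It rose at 2 g/L with no overlap with controls (log2 fold 0.61, SE 0.09, limma adjusted p = 8.53e-06). At 3.5 g/L library 98 fell within the control range, and the log2 fold was 0.55 (SE 0.09). Mrpl54, another protein of mitochondria alone, had 8.29, 9.94 and 10.6 RPKM in controls, 11.6, 12.5 and 14.0 at 1 g/L, 14.4, 15.7 and 19.2 at 2 g/L, and 14.5, 14.8 and 15.8 at 3.5 g/L. Its groups did not overlap the controls at any dose, and its log2 folds were 0.34, 0.67 and 0.57 (SE 0.06 each). Mrpl45, which sits at the exit of the peptide tunnel and helps to hold the ribosome at the inner membrane, rose by log2 folds of 0.25, 0.49 and 0.58 at the 3 doses (SE 0.07 each). Mrpl15, a homologue of a bacterial core protein, rose at 2 g/L (0.45) and 3.5 g/L (0.53).

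At the other end, Mrpl27, the homologue of a bacterial protein close to the peptidyl transferase centre, had 9.97, 11.1 and 12.6 RPKM in controls, 10.5, 12.2 and 13.1 at 1 g/L, 11.1, 11.8 and 13.2 at 2 g/L, and 9.41, 11.7 and 13.2 at 3.5 g/L. All 4 groups overlapped, with a log2 fold of 0.05 at 3.5 g/L (SE 0.07, limma adjusted p = 0.558). Mrpl23, at the tunnel exit, had log2 folds of 0.12, 0.16 and 0.11 and did not pass the test at any dose. The same holds for Mrpl36 (0.12, 0.17 and 0.14). Mrpl34 did not pass at 2 g/L (0.19) but rose at 3.5 g/L (0.23). Mrpl4, which lines the exit tunnel, rose at 2 g/L (0.18, limma adjusted p = 0.00814) and had 0.12 at 3.5 g/L (adjusted p = 0.0734). Mrpl41 rose at 3.5 g/L by 0.15 (SE 0.06, limma adjusted p = 0.0437), close to the threshold.

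**Figure D2:**
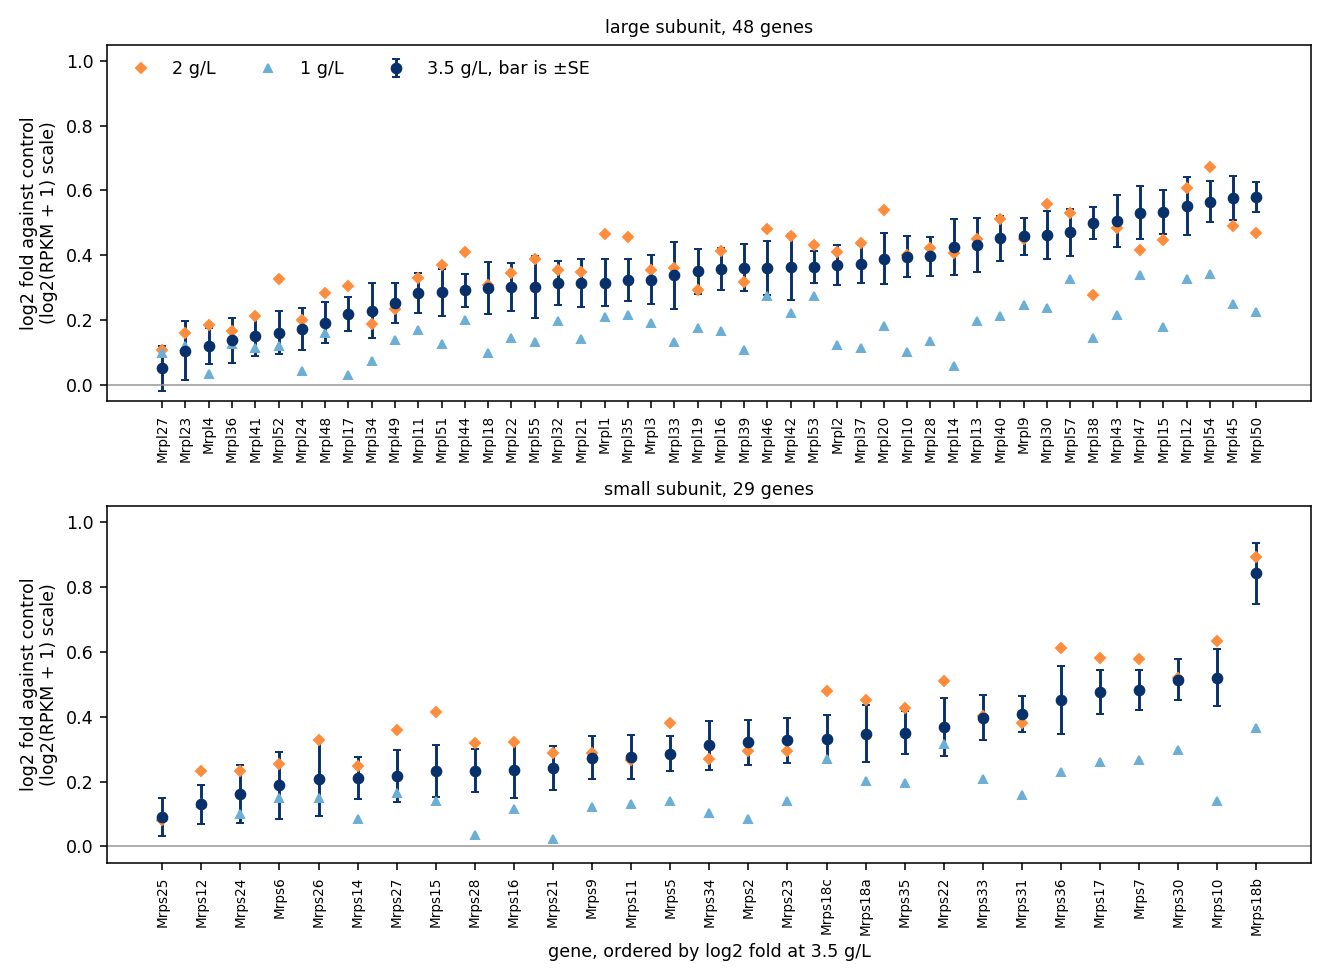
Log2 fold against control of each gene of the large (top) and small (bottom) subunit, on the log2(RPKM + 1) scale, ordered by the fold at 3.5 g/L. Dark circles with bars are 3.5 g/L ± SE, orange diamonds 2 g/L and light triangles 1 g/L. All points lie above 0, from 0.05 (Mrpl27) to 0.84 (Mrps18b) at 3.5 g/L, and Mrps18b stands apart from the other genes of its subunit.

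In the small subunit, 6, 28 and 24 of 29 genes rose in order of dose and none fell, to be read against the same shares of all genes. The median log2 fold was 0.14, 0.36 and 0.31 at 1, 2 and 3.5 g/L. The treated libraries exceeded all controls for 1 gene at the lowest dose (Mrps30), 19 at the middle and 15 at the highest. The same held for 3.01%, 20.2% and 22% of all tested genes in that order. Whether the subunits differ from each other was not tested.

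Mrps18b had the highest fold of all members at every dose. It is 1 of 3 mammalian relatives of the bacterial small subunit protein S18. Its RPKM was 12.03, 14.1 and 17.6 (lowest, median and highest) in controls, 15.3, 19.7 and 22.1 at 1 g/L, 25.3, 27.9 and 30.2 at 2 g/L, and 21.7, 28.6 and 29.99 at 3.5 g/L. The 1 g/L group overlapped the controls, and the higher doses did not overlap the controls. Log2 folds were 0.37, 0.89 and 0.84 (SE 0.09 each), with limma adjusted p of 0.0153, 9.56e-08 and 9.82e-08. The relative Mrps18c, also of the small subunit, rose by 0.27, 0.48 and 0.33. Mrps18a, the relative that sits in the large subunit despite its name, had 0.20 at 1 g/L (limma adjusted p = 0.128) and rose by 0.45 and 0.35 at 2 and 3.5 g/L. How reads shared by these related genes were counted was not given in the sources used here.

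Mrps30, which is also placed in the large subunit by structure, had 3.96, 4.08 and 4.99 RPKM in controls, 5.00, 5.48 and 5.79 at 1 g/L, 6.01, 6.34 and 7.68 at 2 g/L, and 5.63, 6.62 and 7.36 at 3.5 g/L. Its treated libraries lay above all controls at each dose, by the smallest of margins at 1 g/L, with log2 folds of 0.30, 0.52 and 0.51 (SE 0.06 each). Mrps7, a protein of the head of the small subunit, had 16.2, 18.6 and 19.8 RPKM in controls, 19.0, 22.6 and 24.03 at 1 g/L, 25.9, 27.6 and 31.1 at 2 g/L, and 23.4, 26.7 and 27.9 at 3.5 g/L. It overlapped the controls at 1 g/L and not above, with log2 folds of 0.27, 0.58 and 0.48. Mrps10 and Mrps17, both with bacterial homologues, rose at 3.5 g/L by 0.52 and 0.48. Mrps36, today regarded as a component of the alpha-ketoglutarate dehydrogenase complex, rose by 0.61 at 2 g/L and 0.45 at 3.5 g/L. It was named after its values were seen.

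Mrps25, which is found only in mitochondria, had the lowest control level of the small subunit. It also had the lowest fold there at 2 and 3.5 g/L on the log2(RPKM + 1) scale. Its RPKM was 1.23, 1.38 and 1.60 in controls, 1.27, 1.57 and 1.79 at 1 g/L, 1.31, 1.49 and 1.97 at 2 g/L, and 1.46, 1.56 and 1.61 at 3.5 g/L. All groups overlapped, and the log2 fold was 0.09 at 3.5 g/L (SE 0.06, limma adjusted p = 0.194). A pseudocount of 1 RPKM understates the fold of a gene at this level, so the rank of Mrps25 as the lowest depends on the scale. Mrpl19, the lowest of the large subunit, rose by 0.29 at 2 g/L. Mrps12, part of the decoding centre, rose at 2 g/L (0.23) and had 0.13 at 3.5 g/L (limma adjusted p = 0.0747). Mrps24, Mrps6 and Mrps26 likewise passed at 2 g/L (0.23, 0.25 and 0.33) and not at 3.5 g/L (0.16, 0.19 and 0.21).

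**Figure D3:**
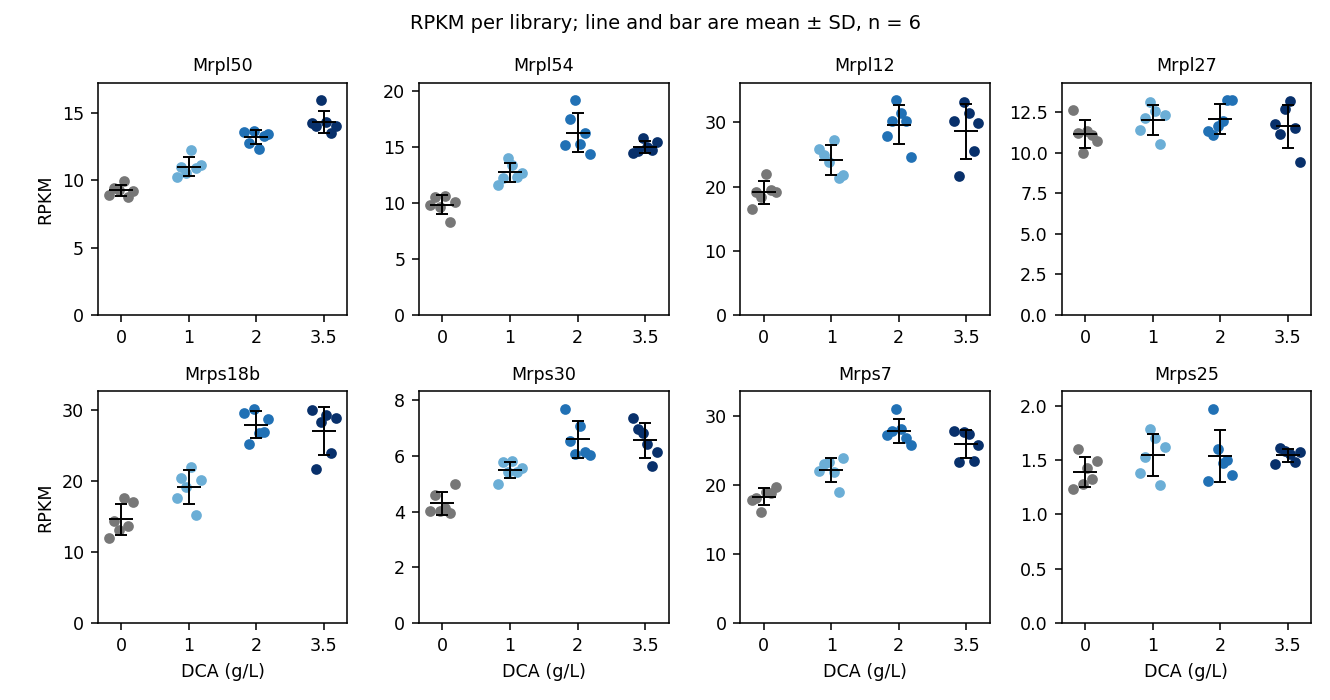
RPKM of 8 genes in each of the 24 libraries by dose of DCA in g/L, with the mean ± SD of 6 libraries as black line and bar. Upper row, large subunit; lower row, small subunit. Mrpl50, Mrpl54, Mrps18b, Mrps30 and Mrps7 have no library at 2 or 3.5 g/L within the control range, whereas the groups of Mrpl27 and Mrps25 overlap.

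At 1 g/L the called genes with the smallest adjusted p were, in the large subunit, Mrpl53 (log2 fold 0.27), Mrpl54 (0.34), Mrpl50 (0.23), Mrpl57 (0.33) and Mrpl9 (0.24). In the small subunit they were Mrps30, Mrps7, Mrps18b, Mrps17 (0.26) and Mrps18c. These counts leaned on single libraries. Without control 3 the large subunit had 7 called genes and the small subunit 4, where 4.69% of all genes were called higher. Without 1 g/L library 49 they had 21 and 11, where 11.9% of all genes were. Within tag L1 alone, with 3 treated libraries, limma called no member at 1 g/L, where 0.18% of all genes were called higher. At an unadjusted p under 0.05, 18 large and 8 small subunit genes were higher there, as were 10.1% of all genes. The subunit median over the 3 libraries of each tag at 1 g/L was 0.21 in L1 and 0.22 in L2 for the large subunit and 0.24 and 0.18 for the small. After division by median-ratio library factors, described below with the scaling, it was 0.15 and 0.12 for the large and 0.18 and 0.06 for the small. The part of the tag in the values at 1 g/L was not tested.

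From 1 to 2 g/L, 47 of 77 members rose further (31 of the large and 16 of the small subunit), where 22.7% of all tested genes were called higher. Without 2 g/L library 75, which had the highest summed RPKM, 32 did, where 17.4% of all genes were called higher. Between 2 and 3.5 g/L, a single member was called, where 10.3% of all genes were called in either direction. It was Mrpl38, a protein of the central protuberance of the large subunit. Its RPKM was 14.4, 14.9 and 15.6 in controls, 15.4, 16.6 and 18.0 at 1 g/L, 16.9, 18.2 and 20.1 at 2 g/L, and 20.5, 21.3 and 24.04 at 3.5 g/L. The 3.5 g/L libraries lay above all those at 2 g/L, with a log2 difference of 0.22 (SE 0.05, limma adjusted p = 0.00668). For the others the fold was more often lower at the highest dose. The fold was higher at 2 than at 3.5 g/L for 36 of 48 large and 23 of 29 small subunit genes, with a median difference (3.5 minus 2 g/L) of −0.04 and −0.07 beside −0.01 over all genes. Tag L2 against L3 cannot be told apart from dose in this step.

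The size of these differences was relative to the scaling. As deposited, the median gene was 0.12 higher at 2 g/L than in controls on the log2 scale. Library factors by median ratio, which centre the median gene, ran from 0.884 to 0.949 in controls and 1.02 to 1.12 at 2 g/L. At 1 g/L they ran from 0.922 to 0.980 in tag L1 and 0.978 to 1.02 in tag L2. At 3.5 g/L they ran from 1.00 to 1.07. They thus moved with both dose and tag, and the part of each was not tested. With quantile normalization 34 large and 14 small subunit genes rose at 2 g/L (20.8% of all genes), 27 and 11 at 3.5 g/L (21.9%), and 10 and 6 at 1 g/L (5.26%). After division by the median-ratio factors, 36 large and 16 small subunit genes rose at 2 g/L (20.8% of all genes were called higher) and 32 and 17 at 3.5 g/L (23%). At 1 g/L 8 and 5 rose (3.62%). The median log2 folds were 0.10, 0.24 and 0.21 for the large and 0.08, 0.20 and 0.17 for the small subunit. Folds remained above 0 for 46 and 28 genes at 2 g/L. Mrpl27 was among the exceptions, at −0.06 and −0.10 at 2 and 3.5 g/L. Mrps18b kept log2 folds of 0.73 and 0.69 and Mrpl50 of 0.30 and 0.43.

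With the title tag as a term, which widened the SE 1.72-fold at 2 g/L, 22 large and 14 small subunit genes rose at 2 g/L (10.6% of all genes), and the median log2 folds were 0.35 and 0.40. At 1 g/L 3 and 1 did (1.22%), namely Mrpl53, Mrpl54, Mrpl57 and Mrps7. No such fit exists for 3.5 g/L.

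**Figure D4:**
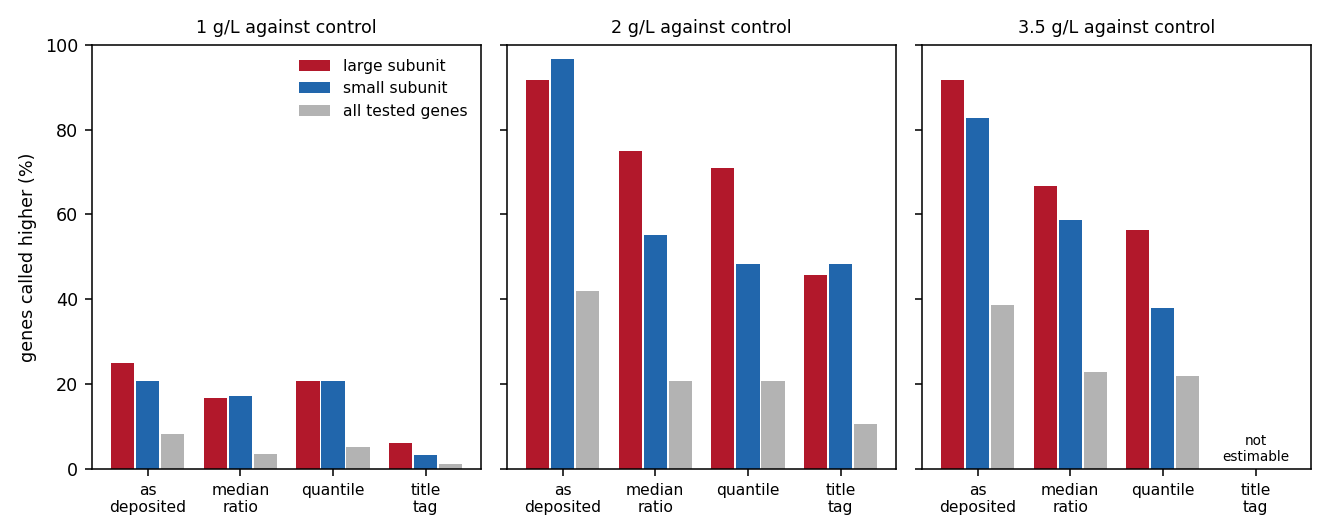
Percent of genes called higher (adjusted p under 0.05) at each dose against control, for the large subunit (red, 48 genes), the small subunit (blue, 29 genes) and all tested genes (grey, 6540), under 4 ways of fitting. At 2 g/L the grey bar falls from 41.9% as deposited to 20.8% with median-ratio factors, and the red and blue bars fall with it; the title tag cannot be fitted at 3.5 g/L.

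The members also divide by descent. Here Mrps18a and Mrps18b stand with the mitochondrion-specific proteins, as in the unified naming, although they resemble S18. In the large subunit all 18 mitochondrion-specific genes rose at 2 g/L and all 18 at 3.5 g/L, beside 26 of 30 bacterial homologues at each dose. At 1 g/L 7 of 18 and 5 of 30 rose. Median log2 folds at 2 g/L were 0.43 and 0.37. In the small subunit 12 of 13 mitochondrion-specific genes and 16 of 16 homologues rose at 2 g/L, with medians of 0.40 and 0.31, and 11 of 13 and 13 of 16 at 3.5 g/L, with medians of 0.35 and 0.26. These counts are to be read against 8.35%, 41.9% and 38.6% of all genes called higher at 1, 2 and 3.5 g/L. With median-ratio factors 20.8% and 23% of all genes were called higher at 2 and 3.5 g/L. Under these factors 9 of 13 mitochondrion-specific genes and 7 of 16 homologues of the small subunit rose at 2 g/L, and 9 and 8 at 3.5 g/L. In the large subunit 14 of 18 and 22 of 30 then rose at 2 g/L, and 12 and 20 at 3.5 g/L, the same share of each class. The order of the small subunit shares at 2 g/L thus turned with the scaling, and the difference between the classes was not tested. As deposited, the genes of the large subunit that did not pass at 2 g/L (Mrpl23, Mrpl27, Mrpl34 and Mrpl36) are all homologues of bacterial proteins. The gene of the small subunit that did not pass there, Mrps25, is mitochondrion-specific.

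Genes of like control level could differ in fold, and no test of level against fold was run. Mrps18b and Mrpl34 had like control levels (14.7 and 13.8 RPKM) and log2 folds of 0.89 and 0.19 at 2 g/L. Mrps25 and Mrpl19 are the lowest of each subunit and had 0.08 and 0.29.

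**Figure D5:**
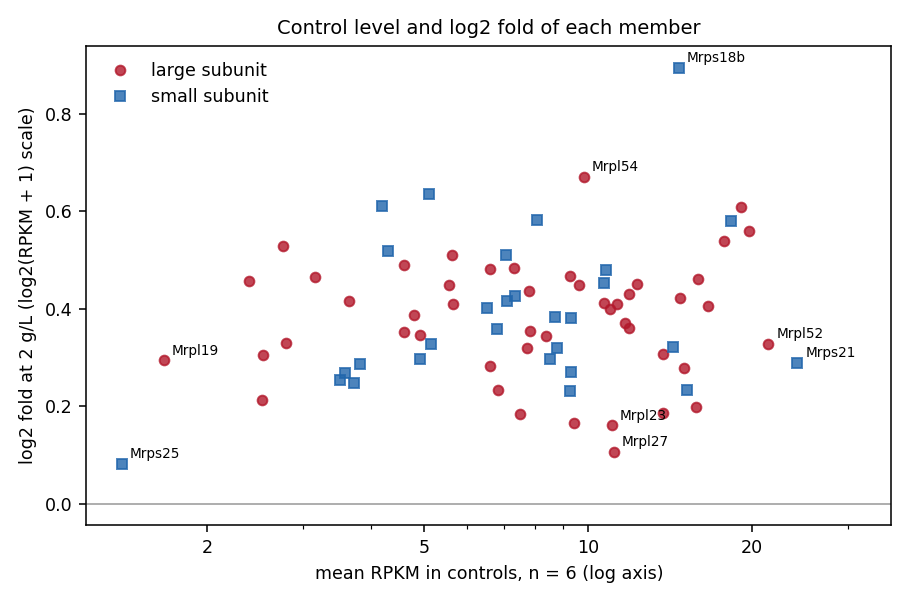
Mean RPKM in controls (n = 6, log axis) against the log2 fold at 2 g/L on the log2(RPKM + 1) scale, with 1 point per gene, red circles for the large and blue squares for the small subunit. Genes at the edges of the plot are named; Mrps18b lies highest at 0.89, and Mrps25 and Mrpl27 lie lowest at 0.08 and 0.11.

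Other genes of mitochondrial translation are given side by side with the members, since the comparisons share the same libraries. Their counts are to be read against the 41.9% and 38.6% of all genes called higher at 2 and 3.5 g/L. Of 5 further ribosomal proteins held under other symbols, all 5 rose at 2 g/L. At 3.5 g/L 3 did, namely Dap3, a GTP-binding protein of the small subunit (log2 fold 0.26 at 3.5 g/L), Gadd45gip1 (0.24) and Aurkaip1 (0.23). Of 9 translation factors, 6 rose at each of these doses, led at 3.5 g/L by the initiation factor Mtif2 (0.49), the release factor Mtrf1 (0.36) and Mtfmt (0.34), which formylates the initiator tRNA. The elongation factor Guf1 had 0.00 at 3.5 g/L.

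Of 18 ribosome assembly factors tested, 11 and 15 rose at these doses. The highest folds at 3.5 g/L were those of the helicase Ddx28 (0.70), the RNA-binding protein Fastkd2 (0.54) and Malsu1 (0.34), which keeps an immature large subunit from joining the small. Mrm1, which methylates the ribosomal RNA of the large subunit, fell by 0.15 at 2 g/L (limma adjusted p = 0.024). Among 10 mitochondrial aminoacyl-tRNA synthetases 6 and 5 rose at 2 and 3.5 g/L, and the called genes with the highest folds at 3.5 g/L were Hars2 (0.33), Fars2 (0.30) and Ears2 (0.23). All 9 genes of mitochondrial messenger and transfer RNA handling rose at 2 g/L and 7 at 3.5 g/L, led by Fastkd1 (0.63), Hsd17b10 (0.58), a subunit of mitochondrial RNase P, and Fastkd5 (0.32).

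With median-ratio factors, where 20.8% and 23% of all genes were called higher at 2 and 3.5 g/L, fewer of these genes rose. Of the 5 other ribosomal proteins 2 and 1 did, of the 9 translation factors 5 and 5, and of the 18 assembly factors 9 and 7. Of the synthetases 3 and 2 did, and of the RNA handling genes 5 and 3. Under these factors 2 translation factors fell at 2 g/L, and 1 assembly factor fell at each of these doses.

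The proteins made by the mitochondrial ribosome are assembled together with nuclear-encoded subunits of the respiratory chain. Of 36 complex I genes tested, 33 and 36 rose at 2 and 3.5 g/L, with median log2 folds of 0.42 and 0.47. Of 29 cytochrome oxidase and ATP synthase genes, 27 rose at each dose, with medians of 0.44 and 0.50. These counts too stand beside 41.9% and 38.6% of all genes called higher. With median-ratio factors 26 and 30 complex I genes and 23 and 24 of the others rose, beside 20.8% and 23% of all genes. The mitochondrially encoded subunits were not analysed here. Of 5 regulators listed for mitochondrial gene expression, Myc (0.74), Esrra (0.54), Gabpa (0.17) and Nrf1 (0.13) rose at 3.5 g/L. Gabpb1 had 0.05 at that dose, where 38.6% of all genes were called higher. With median-ratio factors Myc and Esrra remained called there.

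Each member had 1 protein-coding gene in the GENCODE annotation of GRCm38, and they were spread over 17 chromosomes, with most on chromosomes 11 (10 genes), 17 (8) and 6 (7). Mrps18b lies at chr17:35910379-35916389 on the minus strand, Mrpl50 at chr4:49512596-49521093 (minus), Mrpl27 at chr11:94653767-94660089 (plus) and Mrps25 at chr6:92169525-92184033 (minus). The use of strand in counting was not given in the sources used here, so genes that overlap on opposite strands may share reads. Exons of 27 members overlapped a gene on the other strand, and their median log2 fold at 2 g/L was 0.36, against 0.38 for the other 50. For the 45 members with no exonic overlap at all it was 0.40. Exons of 8 members overlapped a gene on the same strand, which the use of strand cannot separate, and their median was 0.36. Mrps25 shared 4590 bases of exon with Nr2c2, Mrpl19 1962 bases with Gcfc2, and Mrps18b 638 bases with the antisense gene Gm16279. Mrpl53 shared up to 695 of its 790 exonic bases with a neighbour (Gm42688 on the same strand, Ccdc142os on the other). For Mrps34 it was up to 1309 of 2064 bases (Nme3 on the same strand, Mapk8ip3 on the other). The values of these genes are uncertain to that extent. Mrpl46 and Mrps11 overlapped each other by 173 bases, and their log2 folds at 2 g/L were 0.48 and 0.27. A protein-coding gene started in the opposite direction within 1000 bases for 23 members, among them Mrpl27 (Eme1), Mrpl50 (Zfp189) and Mrps18b (Ppp1r10).

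Promoters of genes for mitochondrial proteins are known for short motifs bound by the factors NRF1, the ETS family (GABP among them) and YY1. Windows from 250 bases before to 50 bases after the start, from RefSeq on GRCm38.p6, were found for 68 of the 77 members (74 windows). Both strands were searched. The ETS letters CCGGAAG were in 33.8% of the members' windows (29.8% for the large and 40.7% for the small subunit), in 17.4% of 6165 windows of tested genes and in 8.86% of all 32851 windows. The YY1 letters AAGATGGCG were in 10.8%, 3.05% and 1.4% in the same order, and the NRF1 palindrome in 4.05%, 2% and 0.971%. The other motifs lay nearer to the tested genes. SP1 (GGGCGGG) was in 43.2% of members' and 45.3% of tested windows, NF-Y (CCAAT) in 40.5% and 39%, and the E-box CACGTG in 9.46% and 10.4%. The direct repeat bound by PPAR was in 0 of 74 windows and in 0.0649% of the windows of tested genes. Members with the ETS letters had a median log2 fold of 0.35 at 2 g/L (25 genes), and those with a window but without them 0.41 (43 genes). A match is a description of letters and not a bound site.

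The ETS match is shown where it occurs in the genes with the lowest fold of the large subunit and the highest of the small subunit, which both hold it. Only short stretches are given, since annotated exons fill most of these windows before the start. In Mrps18b exons of Ppp1r10 leave no base free there. In Mrpl27 the longest run free of exons of Eme1 and Mrpl27 is 24 bases. Capitals mark the match, written 5′ to 3′ on the gene's strand. That of Mrpl27 is at chr11:94653726-94653752 (plus strand), with the first base of the match 55 bases before the RefSeq start at position 94653791. That of Mrps18b is at chr17:35916391-35916407 (minus strand), where the match reads in the reverse direction and begins 43 bases after the RefSeq start at position 35916440. These starts differ from the GENCODE gene bounds given above.
Mrpl27: tccgcaagacCCGGAAGtagatctatc
Mrps18b: cgcagtcgctCTTCCGG

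The corresponding genes at the other ends, Mrpl50 with the highest fold of the large subunit and Mrps25 with the lowest of the small, held neither ETS, YY1 nor NRF1 letters in the window. The parts of their windows before the start and free of annotated exons are shown for comparison, at chr4:49521094-49521175 (minus strand) and chr6:92184034-92184273 (minus strand). Capitals mark the NF-Y letters, in reverse direction, which both hold.
Mrpl50: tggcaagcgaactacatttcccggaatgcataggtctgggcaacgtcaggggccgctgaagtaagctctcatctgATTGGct
Mrps25: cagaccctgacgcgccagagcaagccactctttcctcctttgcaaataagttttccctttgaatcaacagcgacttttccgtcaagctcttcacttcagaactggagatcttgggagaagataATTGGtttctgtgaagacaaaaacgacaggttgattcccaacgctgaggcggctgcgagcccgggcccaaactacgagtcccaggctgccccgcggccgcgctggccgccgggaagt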

How the data were processed

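The authors deposited 1 table of RPKM, which was used for all 24 libraries. Tools named in the submitters' processing notes are STAR 2.4, CASAVA and Partek, with the build mm10 and no roles, and per the labels' protocols a stranded total RNA kit with removal of ribosomal RNA was used. The gene annotation and the use of strand in counting were not given in the sources used here. A value of 0 is written as 1e-04 RPKM. The table as held stops inside 1 line, which was dropped with 13 lines whose symbols had turned into dates, leaving 15582 genes. No column was unused.

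The test took in 6540 genes that reached 0.5 RPKM in 6 libraries or more. Group means of log2(RPKM + 1) by dose were fitted to all 24 libraries with limma 3.58.1 (R 4.3.3) and a variance trend, two-sided, with Benjamini-Hochberg adjustment over all tested genes and a threshold of 0.05. On simulated data with 100 genes changed 1.25-fold among 6540, it recovered 66, 73 and 72 for the doses of 1, 2 and 3.5 g/L, with 4, 6 and 7 false calls. In the data far more genes were called (41.9% higher at 2 g/L), so these numbers are no error rate for the calls reported. Alternatives were a pseudocount of 0.1 RPKM, no filter, a filter of 1 RPKM, median-ratio factors, quantile normalization, the title tag as a term, tag L1 alone, and leaving out each library. Counting Mrps18a and Mrps30 with the large subunit was added after seeing the data. Named members were the 5 highest and 5 lowest folds at 3.5 g/L, the 3 highest and lowest control levels and up to 5 called at 1 g/L in each subunit; of each partner list, up to 3 called genes. Guf1, Gabpb1, Mrm1, Nrf1, Mrpl38, Mrpl34, Mrpl46, Mrps34, Mrps36, Mrps18a and the 4 genes left with the title tag were named after their values were seen. The members and lists were chosen with earlier results of these data known.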

Additional observations from a re-analysis of the deposited data

Results flagged for a closer look

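Among 128 groups of 6 libraries for 30 named genes, plus both subunit medians, 3 held a library set apart from the other 5 by Dixon's criterion, and chance gives about 1 in 20. Mrpl50 was at 15.9 RPKM in 3.5 g/L library 99, against 13.5 to 14.3 in the others of that dose. Mrpl57 was at 5.10 RPKM in the same library, against 3.76 to 4.21. Mrpl19 was at 1.74 RPKM in 3.5 g/L library 98, against 2.39 to 2.67. Library 99 had the highest and library 98 the lowest subunit medians at 3.5 g/L.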

How the results depend on the processing

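A pseudocount of 0.1 RPKM, no filter, a filter of 1 RPKM and the placing of Mrps18a and Mrps30 with the large subunit left all counts of called members run under them within 1.5 times those reported. With quantile normalization the counts were 27 (large) and 11 (small) at 3.5 g/L and 14 (small) at 2 g/L. They were 15 of 77 for 2 against 1 g/L, where 22.4% of all genes were called in either direction. For 3.5 against 2 g/L they were 4 of 77, where 11% of all genes were. Median-ratio factors gave 16 (small) at 2 g/L, 24 for 2 against 1 g/L and 2 for 3.5 against 2 g/L. Of all genes, 22.9% and 11.5% were called in either direction in these last steps. With the title tag as a term the counts were 3 (large) and 1 (small) at 1 g/L and 22 and 14 at 2 g/L. For 2 against 1 g/L the count was 23, where 14.6% of all genes were called in either direction. Within tag L1, with fewer libraries, the counts were 0 and 0 at 1 g/L. Under quantile normalization the log2 fold of Mrpl4 at 2 g/L was -0.00545 and that of Mrpl52 at 3.5 g/L was -0.0198. Of 90 results for single genes, no other called one changed direction. With median-ratio factors 15 were no longer called, with no filter 6, and with quantile normalization 11 besides the 2 just given. With the title tag, which has no fit at 3.5 g/L, 18 were lost and 42 were unchanged. Within tag L1, at 1 g/L only, 14 were lost and 16 were unchanged. The cause was not tested. Leaving out each library in turn gave 7 to 21 (large) and 4 to 11 (small) at 1 g/L, 44 to 46 and 25 to 28 at 2 g/L, 40 to 46 and 21 to 25 at 3.5 g/L, 32 to 49 for 2 against 1 g/L, and 1 in every case for 3.5 against 2 g/L. Over all genes the share called higher ran from 4.69% to 11.9% at 1 g/L in these fits. For 2 against 1 g/L it ran from 17.4% to 23.8%. No paired analysis was possible because the doses share no replicate numbers. Depth was lowest for Mrpl41, with a mean of about 62 reads.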
